A study of Mus musculus with 7 samples.

Results

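The genes of the proteasome were followed through a mouse colitis experiment in colon tissue. A gene was taken when its symbol in the array annotation began with Psma, Psmb, Psmc, Psmd, Psme, Psmf or Psmg and a number, on a probe set (a group of short probes for 1 transcript) with 1 symbol. This gave 46 genes on 58 probe sets, of 8251 genes with 1 symbol on the array. Of these, 41 had a signal of at least 100 in their highest pool, against 4316 of all genes, and the counts given here are over those 41. Psmc4, Psmd2 and Psmc3ip were under the floor of 50 on every array, and Psmd10 and Psmg2 stayed below 100 in every pool. Psmc3ip, a recombination cofactor, and Psme3ip1, a partner protein of an activator, carry matching symbols without being subunits. Psme2 was read only by probe sets annotated to both Psme2 and Psme2b, so it is described apart from the 46.

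All mice were female CD-1 outbred animals, 10 to 12 weeks old at the start, and received 6 enemas of either saline or TNBS in ethanol. TNBS, trinitrobenzene sulphonic acid, attaches to proteins of the bowel wall and makes them targets of the immune system. Ethanol alone was not among the groups, so an effect of TNBS and one of its solvent cannot be told apart. Colon was sampled 4 ± 0.5 cm above the anus. Each group was a single RNA pool: TNBS at week 6 (6 mice, 3 days after treatment), week 8 (4 mice, 2 weeks), week 10 (5 mice, 4 weeks) and week 12 (4 mice, 6 weeks). The saline pool of week 6 (5 mice, 3 days), named early saline here, was read on 2 arrays. The labels call these 2 replicates of RNA pooled from 5 mice, and they were taken here as repeat arrays of 1 pool. The later saline pool held 2 mice taken at 2 weeks and 2 at 4 weeks, and it served as the control of the week 8, 10 and 12 pools, whose differences therefore share it. With 1 pool on each side these comparisons allow no test, and genes were counted when they differed at least 1.5-fold. In a piece of whole colon, fewer cells of a type and less RNA per cell cannot be told apart.

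The proteasome is the cell's main protease for ubiquitin-tagged proteins. Its 20S core is a barrel of alpha rings, which gate the entrance, around beta rings, which carry the catalytic subunits beta1 (Psmb6), beta2 (Psmb7) and beta5 (Psmb5). In cells exposed to interferon gamma, and in many leukocytes at rest, these are replaced during assembly by beta1i (Psmb9), beta2i (Psmb10) and beta5i (Psmb8), giving the immunoproteasome, which cuts proteins into peptides suited to MHC class I. The core is capped by the 19S regulator, whose ATPases (Psmc genes) unfold substrates and whose other subunits (Psmd genes) bind and deubiquitinate them. It can also be capped by PA28, a ring of the Psme1 and Psme2 products that interferon gamma also induces.

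The promoters of the exchanged catalytic genes are shown because these pairs carry the main contrast. They are the 250 bases before the RefSeq start site in GRCm38.p6: chr17:34197945-34198194 on the plus strand for Psmb8, chr17:34187331-34187580 on the minus strand for Psmb9, chr8:105938393-105938642 on the minus strand for Psmb10, chr14:54617996-54618245 on the minus strand for Psmb5 and chr11:70525107-70525356 on the plus strand for Psmb6. Psmb7 had no entry in the promoter table. Capitals mark a match to the antioxidant response element (ARE), the site of NRF2 and its relatives, in Psmb5 and Psmb6.
Psmb8: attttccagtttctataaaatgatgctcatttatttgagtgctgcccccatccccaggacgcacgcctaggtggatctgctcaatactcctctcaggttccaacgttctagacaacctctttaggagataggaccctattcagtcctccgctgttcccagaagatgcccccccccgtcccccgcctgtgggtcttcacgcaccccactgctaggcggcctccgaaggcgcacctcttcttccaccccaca
Psmb9: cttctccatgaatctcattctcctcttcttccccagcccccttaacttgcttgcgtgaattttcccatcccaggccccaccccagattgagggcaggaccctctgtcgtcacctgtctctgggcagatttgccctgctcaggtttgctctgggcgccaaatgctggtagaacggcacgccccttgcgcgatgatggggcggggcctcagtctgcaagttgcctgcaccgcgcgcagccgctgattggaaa
Psmb10: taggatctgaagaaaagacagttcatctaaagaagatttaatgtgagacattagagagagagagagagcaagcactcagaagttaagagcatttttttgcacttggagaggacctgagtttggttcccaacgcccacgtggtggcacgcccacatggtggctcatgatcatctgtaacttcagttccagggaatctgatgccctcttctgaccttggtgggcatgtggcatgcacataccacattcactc
Psmb5: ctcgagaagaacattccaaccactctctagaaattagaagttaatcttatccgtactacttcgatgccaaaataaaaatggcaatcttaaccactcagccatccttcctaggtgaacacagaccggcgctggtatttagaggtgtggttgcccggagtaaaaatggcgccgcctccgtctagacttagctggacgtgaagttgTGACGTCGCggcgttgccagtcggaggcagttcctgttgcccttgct
Psmb6: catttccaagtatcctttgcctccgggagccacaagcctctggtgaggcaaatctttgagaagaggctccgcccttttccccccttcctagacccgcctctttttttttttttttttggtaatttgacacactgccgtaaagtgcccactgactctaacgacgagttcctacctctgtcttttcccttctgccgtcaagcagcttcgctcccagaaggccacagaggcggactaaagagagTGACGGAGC
Exact matches on both strands were sought in windows from 250 bases before to 50 after the start, for the interferon-stimulated response element ISRE (GAAA and again GAAA, 2 bases apart), NF-kB (GGGA and CC, 4 bases apart) and ARE (TGACNNNGC). The ARE match of Psmb5 began 47 bases before the start and that of Psmb6 at 9 bases before it. The windows of Psmb8, Psmb9 and Psmb10 held none of these letters. Of the 39 genes with a window, 5 held an ISRE (12.8%, against 3.44% of 32851 windows), 11 an NF-kB match (28.2% against 20.7%) and 6 an ARE (15.4% against 12.4%). Psme1 was among the 5 with an ISRE match, starting 10 bases after its start site. Psmb9, Tap1, Psmb8 and Tap2 lie 4 in a row on chromosome 17, and the windows of Psmb9 and of Tap1, a subunit of the peptide transporter, overlap by 275 bases. A match describes the letters of the window and does not show that a factor binds there.

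Each array had been scaled to the same target, and median signals ran from 51.7 to 61.1. Colon epithelial transcripts were abundant on every array, with Krt8, a keratin of simple epithelia, at 4275.0 to 7694.4 and Lgals4, a galectin of the gut lining, at 4069.4 to 8506.7. The 3' to 5' signal ratio of beta-actin, which tracks how intact the RNA was, ran at 1.14 to 1.24 on the week 6 arrays and 0.798 to 0.818 on the later ones. It thus moved with the control set, and age, time and array run cannot be told apart between both sets. Over the 41 proteasome genes the second early saline array differed from the first with an SD of 0.27 on the log2 scale, against 0.29 for all genes.

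The inducible catalytic genes were highest 3 days after the enemas. Psmb9 (beta1i, cutting after branched residues and lacking the caspase-like activity of beta1) had a signal of 241.8 and 189.9 on the early saline arrays and 525.9 in the week 6 TNBS pool. It had 255.6 in the later saline pool and 369.7, 382.9 and 254.4 in the week 8, 10 and 12 TNBS pools. The week 6 TNBS pool was the highest of all arrays, week 8 and week 10 lay above every saline array, and week 12 lay between the saline values. This was 2.45-fold higher at week 6, with log2 differences of 0.53 at week 8, 0.58 at week 10, just under the 1.5-fold line, and -0.01 at week 12. Psmb9 differed by 0.25 between both saline pools and by -0.35 between both arrays of 1 pool.

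Psmb8 (beta5i, with chymotrypsin-like activity) had a signal of 524.3 and 514.9 on the early saline arrays and 845.2 in the week 6 TNBS pool. The later saline pool was at 669.6, and the week 8, 10 and 12 TNBS pools were at 733.8, 724.4 and 547.4. It was 1.63-fold higher at week 6, and the later log2 differences were 0.13, 0.11 and -0.29. The week 6 TNBS pool was again the highest of the arrays, but the saline pools themselves differed by 0.37 for Psmb8, and against the later saline pool the week 6 TNBS difference was 0.34, where that of Psmb9 was 1.04. Psmb10 (beta2i, with trypsin-like activity) was at 949.7 and 880.6 on the early saline arrays, 1014.5 in the week 6 TNBS pool, 971.2 in the later saline pool, and 853.7, 919.1 and 928.3 in the later TNBS pools. All 7 values of Psmb10 lay close together: its log2 differences were 0.15, -0.19, -0.08 and -0.07. The 3 inducible genes therefore did not share 1 size of difference.

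On the probe sets used, the constitutive partners differed less at week 6 than Psmb8 and Psmb9, but more than Psmb10. Psmb5 (beta5) had signals of 429.9 and 401.3 on the early saline arrays, 511.0 in the week 6 TNBS pool, 436.4 in the later saline pool, and 440.5, 393.4 and 430.3 in the later TNBS pools. Psmb6 (beta1) was at 308.5 and 286.4, then 361.0 in the week 6 TNBS pool, with 389.5 in the later saline pool and 293.7, 243.6 and 294.6 in the later TNBS pools. Psmb7 (beta2) was at 341.4 and 359.5, then 435.3 in the week 6 TNBS pool, with 409.8 in the later saline pool and 685.4, 485.5 and 442.9 in the later TNBS pools. At week 6 the log2 differences of Psmb5, Psmb6 and Psmb7 were 0.30, 0.28 and 0.31, all about as large as the SD between repeat arrays, while a second, dimmer probe set of Psmb5 gave -0.79. The genes parted afterwards. Psmb6 was lower in all later TNBS pools, with -0.41, -0.68 (1.60-fold lower) and -0.40, although 293.7 and 294.6 lie between both early saline arrays and the later saline pool was the highest array for Psmb6. Psmb7 was 1.67-fold higher at week 8, and had 0.24 and 0.11 at weeks 10 and 12, on a probe set that matches a family of similar sequences. On its brighter probe set Psmb5 stayed within 0.15 of its control after week 6, while the second set gave -0.65, -1.08 and -0.59.

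**Figure D1:**
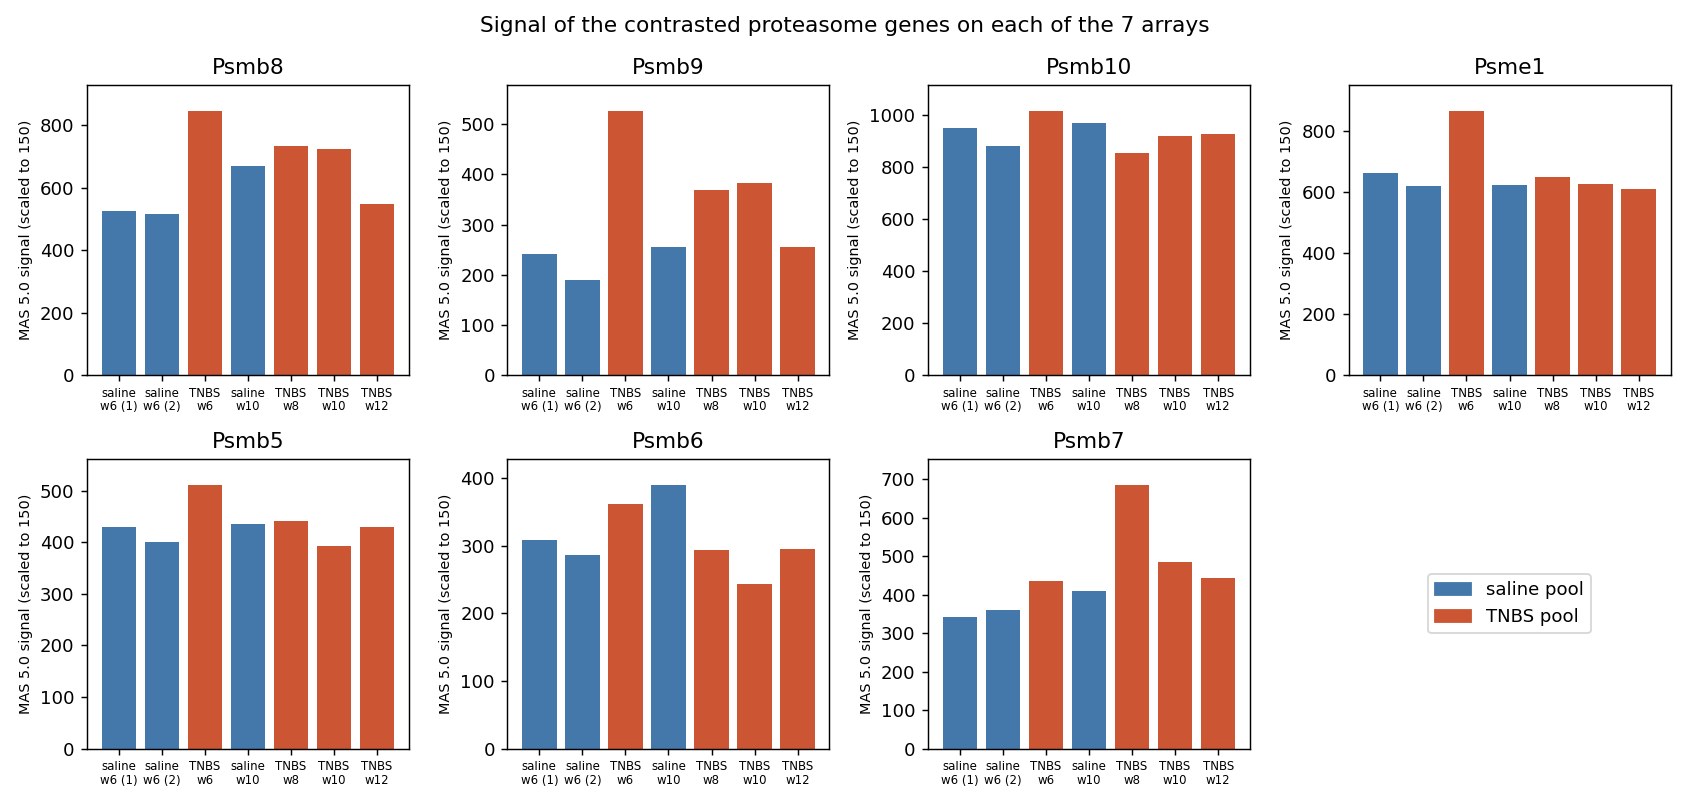
Signal intensity (MAS 5.0 units, linear, bars from 0) of the inducible catalytic genes Psmb8, Psmb9 and Psmb10, their constitutive partners Psmb5, Psmb6 and Psmb7, and the activator gene Psme1 on each of the 7 arrays, with 1 bar for each array and no error bars because each group is 1 pool. Psmb9 reached 525.9 in the week 6 TNBS pool against 241.8 and 189.9 on the early saline arrays, while Psmb10 stayed between 853.7 and 1014.5 on all arrays.

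As a group, the inducible genes had a median log2 difference of 0.70 at week 6 against 0.30 for the constitutive ones, a gap of 0.40. The gap was 0.12 at week 8, 0.26 at week 10 and -0.04 at week 12, and it was 0.03 between both saline pools. At weeks 6, 8 and 10 the medians are the values of Psmb8 and Psmb5 themselves, so the gap is the shift of that pair and rests on the brighter Psmb5 probe set. That brighter set carries the suffix s in its name, while the second, dimmer Psmb5 set has no suffix. Taken gene by gene against the partner it replaces, the picture differed by pair. The Psmb9 to Psmb6 ratio was 2.02-fold, 1.92-fold, 2.40-fold and 1.32-fold that of the matched control at weeks 6, 8, 10 and 12, and lay above both saline pools in 4 of 4 TNBS pools. At week 6 the Psmb9 side made up most of this shift, with 1.30 against 0.28 for Psmb6, and at weeks 8 and 10 a higher Psmb9 and a lower Psmb6 both entered it. At week 12 Psmb9 was at -0.01, and the shift of 0.40 came from Psmb6, against the saline pool that was its highest array. The Psmb8 to Psmb5 ratio shifted by 0.40, 0.12, 0.26 and -0.27 on the log2 scale, against 0.29 between both saline pools. With the second Psmb5 probe set, a reading added after the values were seen, it shifted by 1.49, 0.78, 1.19 and 0.30, against 0.61 between both saline pools. The choice of probe set thus changed its size at every time and its sign at week 12. The Psmb10 to Psmb7 ratio shifted the other way, by -0.16, -0.93, -0.32 and -0.18, and lay above both saline pools in 0 of 4 TNBS pools. For these counts of pools no share over other gene pairs was taken. Psmb9 alone lay above both saline pools in 3 of the 4 TNBS pools, and Psmb6 alone lay below both in 3.

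The 3 pairs were tested over the 4 TNBS and 2 saline pools with exact two-sided permutation tests. The mean shift was 0.87 for Psmb9 to Psmb6 (exact p = 0.133, Benjamini-Hochberg 0.20), -0.43 for Psmb10 to Psmb7 (exact p = 0.133, 0.20) and 0.20 for Psmb8 to Psmb5 (exact p = 0.267, 0.267). With 15 ways to choose 2 of 6 pools, 0.133 is the smallest p this design allows, so no pair could pass 0.05. With the second Psmb5 probe set the mean shift of Psmb8 to Psmb5 was 1.09 (exact p = 0.133).

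**Figure D2:**
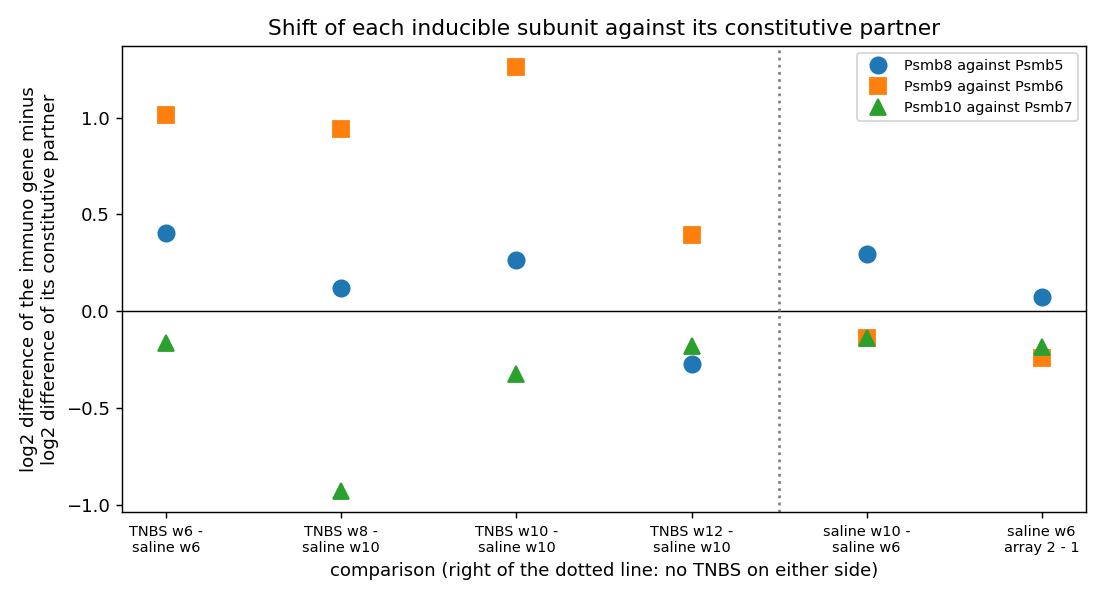
Shift of each ratio of inducible to constitutive partner (log2, vertical axis) in 6 comparisons: 4 TNBS pools against their saline pool, the later against the early saline pool, and both early saline arrays. Each point is 1 comparison of single pools or arrays, without error bars, and Psmb9 to Psmb6 lies at 1.01, 0.94, 1.26 and 0.40 in the TNBS comparisons while Psmb10 to Psmb7 lies below 0 in all of them.

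Of the PA28 genes, Psme1 (PA28 alpha) had a signal of 662.3 and 618.6 on the early saline arrays, 864.8 in the week 6 TNBS pool, 624.6 in the later saline pool, and 650.2, 627.1 and 609.1 in the later TNBS pools. The week 6 TNBS pool stood above all other arrays, which lay within a narrow band. Psme1 was 1.35-fold higher at week 6, a log2 difference of 0.43 against a median of 0.17 for the other 39 subunits and assembly genes past the filter. That margin over the others ran from 0.059 with the mean of probe sets to 0.41 against the later saline pool. Into that mean enters a second Psme1 set that was under the floor on every array, so its difference was fixed at 0. In the later comparisons its difference was 0.06, 0.01 and -0.04, within 0.03 of the median of the others each time. The probe set shared by Psme2 and Psme2b was at 356.3 and 429.2 on the early saline arrays, 622.4 in the week 6 TNBS pool, 581.9 in the later saline pool, and 742.0, 460.0 and 496.4 in the later TNBS pools. Its log2 difference of 0.67 at week 6 stood beside one of 0.57 between both saline pools, and its signal cannot be divided between the PA28 beta gene and the related Psme2b.

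The other activators gave patterns of their own. Psme4 (PA200, a nuclear activator linked to histone degradation) had a signal of 205.7 and 175.5 on the early saline arrays, 304.5 in the week 6 TNBS pool, 255.2 in the later saline pool, and 359.5, 344.0 and 300.4 in the later TNBS pools. All 4 TNBS pools lay above both saline pools, with Psme4 1.60-fold higher at week 6 and log2 differences of 0.49, 0.43 and 0.24 afterwards. The saline pools themselves differed by 0.43 for Psme4, and against the later one its week 6 difference was 0.25. Psme3 (PA28 gamma, also nuclear) had 251.2 and 135.2 on the arrays of 1 saline pool, 179.1 in the week 6 TNBS pool, 123.4 in the later saline pool, and 112.2, 202.6 and 221.4 in the later TNBS pools. Psme3 was thus 1.64-fold and 1.79-fold higher at weeks 10 and 12, less than the 1.86-fold by which it differed between both arrays of the early saline RNA.

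Counts were taken over all 41 genes. At the floor of 50, the share of the proteasome called was below that of all genes in each of the 4 matched comparisons. At week 6, Psmb8, Psmb9 and Psme4 were at least 1.5-fold higher and Psmd11 was lower, which is 9.76% of the proteasome genes. Of all 4316 genes, 13.5% were called there, 7.55% higher and 5.93% lower. At week 8, Psma3, Psmb7 and Psmd12 were higher and 0 lower (7.32%, against 16.3% of all genes, 6.56% higher and 9.75% lower). At week 10, Psmd12 and Psme3 were higher and Psma7 and Psmb6 lower (9.76%, against 11.2%, 4.89% higher and 6.28% lower). At week 12, Psmd12 and Psme3 were higher and 0 lower (4.88%, against 10.2%, 4.84% higher and 5.38% lower). Between both saline pools, Psmd5 was higher and Psmg3 lower (4.88% against 10.1%), and between repeat arrays Psmd5 was higher and Psme3 lower (4.88% against 5.33%). At 2-fold, 1 proteasome gene was called at week 6 (Psmb9; 3.54% of all genes) and 0 at weeks 8, 10 and 12 (3.27%, 1.48% and 1.60% of all genes). The 3 genes called at week 8 were all read by probe sets with the suffix f, given to sets that match a family of similar sequences, as were 5 of the 41. Among the 33 genes on probe sets without a suffix, 0 were called at week 8, against 3 of the 8 with one. Against the early saline pool in place of the later one, 31.7% of the proteasome genes and 28.3% of all genes were called at week 8. The order of the shares also depended on the processing. With a floor of 100 the proteasome share was above at week 6 (9.76% against 9.22%) and week 10 (9.76% against 6.86%). It stayed below at weeks 8 and 12. With the mean of probe sets it was above at week 10 only (12.2% against 8.43%). At the floor of 50, the shares called higher lay near those of all genes. They were 7.32%, 7.32%, 4.88% and 4.88% of the proteasome genes at weeks 6, 8, 10 and 12.

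The alpha ring, which forms the outer gates of the core, was higher as a group at week 6 by a modest amount. All 7 of its genes lay above 0, from 0.15 (Psma4) and 0.17 (Psma7) to 0.44 (Psma5) and 0.49 (Psma2), with a median of 0.38, but none reached 1.5-fold. Between both saline pools, without TNBS, the same 7 genes ran from 0.00 to 0.58 with a median of 0.31. Against the later saline pool, 5 of 7 were above 0 in the week 6 TNBS pool, with a median of 0.13. Psma3 had a signal of 1324.1 and 1301.3 on the early saline arrays, 1702.6 in the week 6 TNBS pool, 1313.3 in the later saline pool, and 2259.3, 1913.3 and 1621.4 in the later TNBS pools. Every TNBS pool was above every saline array for Psma3, and the matched differences were 1.30-fold, 1.72-fold, 1.46-fold and 1.23-fold. Psma7 moved without such order: it was at 355.5 and 426.7 on the early saline arrays, 437.6 in the week 6 TNBS pool, 581.0 in the later saline pool, and 752.4, 384.5 and 408.3 in the later TNBS pools. Its week 10 value was 1.51-fold lower than a saline pool that itself was 1.49-fold higher than the earlier one.

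The 4 non-catalytic beta ring genes, which complete the inner rings, had week 6 differences of -0.12 (Psmb1), -0.03 (Psmb4), 0.31 (Psmb2) and 0.36 (Psmb3), and none reached 1.5-fold at any time. Their medians were 0.14, 0.09, -0.04 and 0.03 at weeks 6, 8, 10 and 12.

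The 19S regulator showed no common difference. The 5 ATPase genes past the filter ran from -0.28 (Psmc2) and -0.23 (Psmc1) to 0.26 (Psmc3) and 0.52 (Psmc6) at week 6, with medians of -0.05, -0.09, -0.22 and -0.11 over the 4 comparisons. The 10 non-ATPase genes ran from -0.76 (Psmd11) and -0.33 (Psmd3) to 0.33 (Psmd13) and 0.40 (Psmd14) at week 6, with a median of 0.03. Psmd11 (Rpn6, a clamp between the 19S and the core) had a signal of 384.4 and 445.3 on the early saline arrays, 244.9 in the week 6 TNBS pool, 415.5 in the later saline pool, and 469.5, 501.5 and 345.1 in the later TNBS pools. The week 6 TNBS pool was the lowest array, 1.69-fold below its control, but the further probe sets of Psmd11 gave only -0.06 and -0.19 there. Psmd12 (Rpn5, a scaffold subunit of the lid) was dim: 99.0 and 88.8 on the early saline arrays, 78.4 in the week 6 TNBS pool, 89.5 in the later saline pool, and 171.8, 150.6 and 162.6 in the later TNBS pools. The later TNBS pools formed a set apart from all other arrays, at 1.92-fold, 1.68-fold and 1.82-fold. Psmd12 passed the filter only through those pools, so it could not have been counted without being high in them.

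The assembly chaperones and the inhibitor-like gene Psmd5 lay on both sides of 0 at week 6, with 3 of the 5 past the filter below and 2 above. Among them, Psmg4 was at -0.39, Psmg3 at -0.34 and Psmd9 at -0.33, while Psmg1 was at 0.04 and Psmd5 at 0.30. None reached 1.5-fold in a matched TNBS comparison. Against the later saline pool, 3 of the 5 were above 0 in the week 6 TNBS pool, with a median of 0.11. Psmg3, a chaperone of alpha ring assembly, was at 310.4 and 282.0 on the early saline arrays and 139.9 in the later saline pool. On this probe set, with the suffix r, it was 2.11-fold lower without TNBS. A second, dimmer set near the floor gave a log2 difference of only -0.265 there. At week 12 that second set gave 0.39, where the brighter one gave -0.08. Psmd5 differed 1.70-fold between both arrays of 1 pool (166.4 and 283.0), so its differences were not read further.

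**Figure D3:**
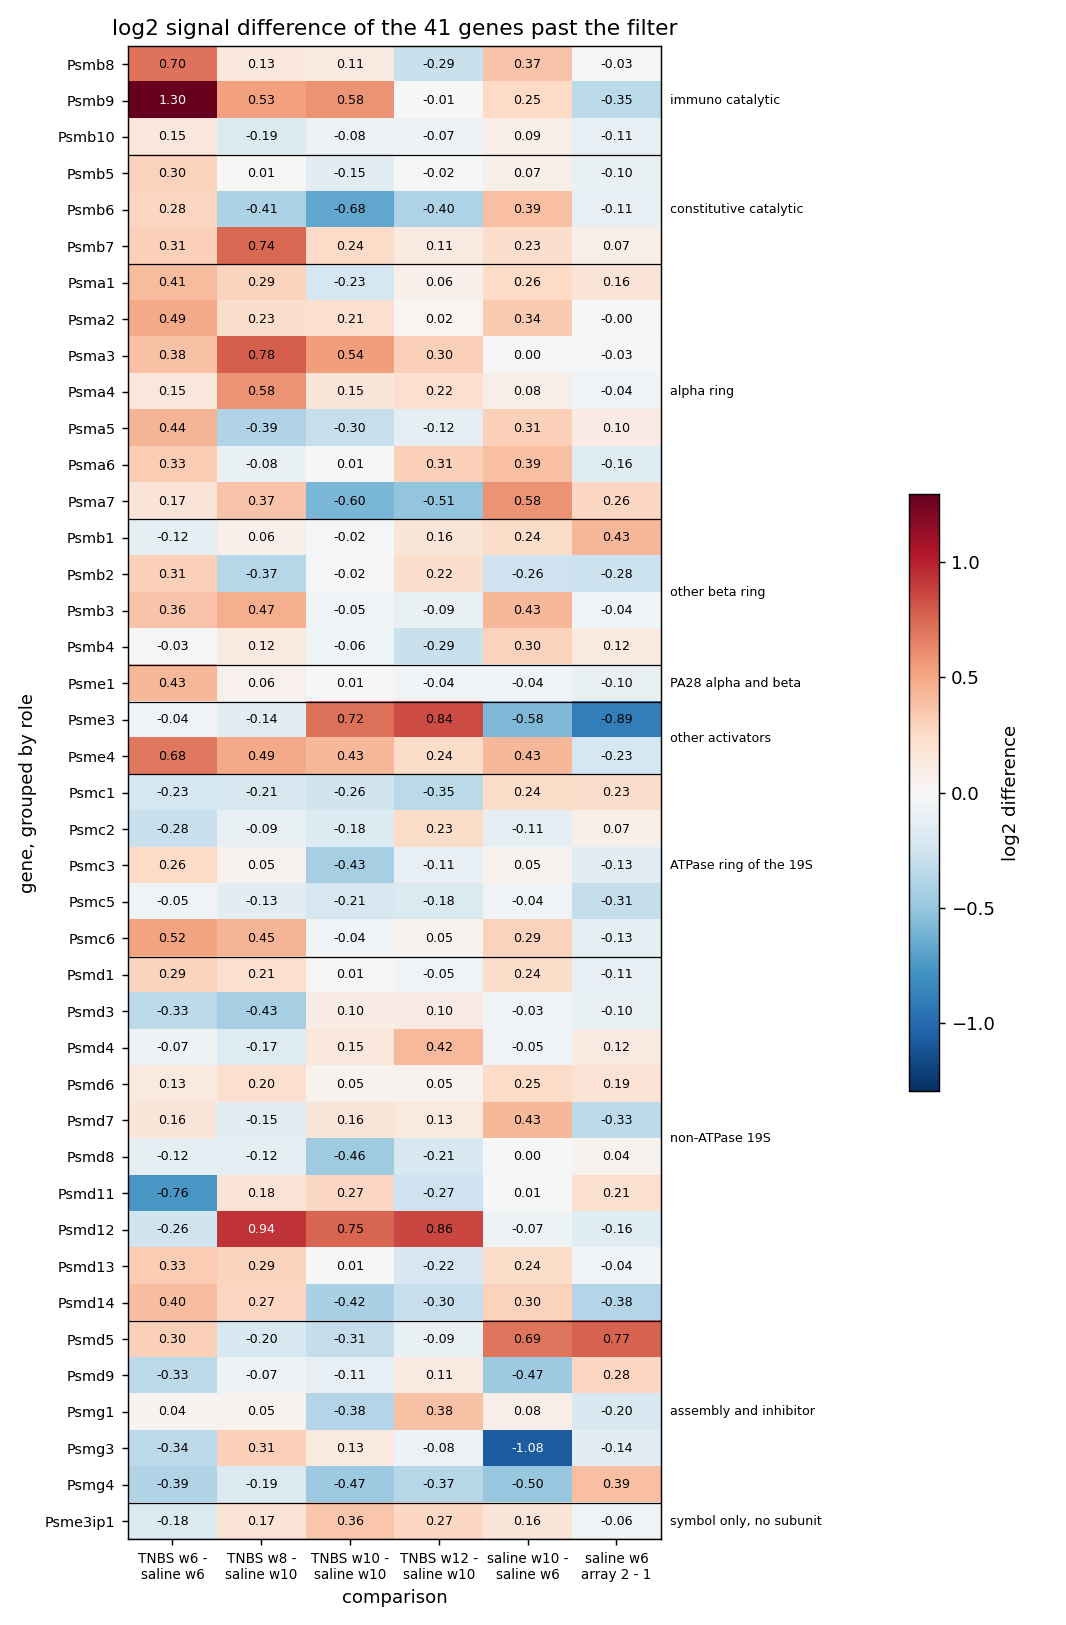
Log2 difference (colour) of the 41 proteasome genes past the filter, ordered by role, in 4 TNBS comparisons, between both saline pools and between both arrays of the early saline pool. The strongest colour is Psmb9 at week 6 (1.30), the alpha ring is above 0 throughout at week 6 and near or above 0 between the saline pools, and Psmd12 stands out at weeks 8, 10 and 12.

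The median log2 difference of the 41 genes was 0.17 at week 6, with 26 above 0 and 15 below, against -0.02 for all genes. It was 0.06 at week 8 (all genes -0.07), -0.02 at week 10 (all genes -0.004) and -0.01 at week 12 (all genes 0.00). Between both saline pools it was 0.23 with 30 above 0, against 0.01 for all genes, larger than in any TNBS comparison. Arrays scaled to equal medians moved the median gene up by 0.18 at week 8 and 0.14 at week 10. Under that scaling the proteasome median was 0.24 at week 8 and 0.12 at week 10, against 0.10 and 0.13 for all genes, and 8 and 7 of the 41 genes turned sign. Among the contrasted genes, this scaling turned Psmb10 at week 10 (0.06) and Psmb9 (0.06), Psmb5 (0.04) and Psme1 (0.03) at week 12. Quantile normalization turned Psmb5 at week 8 (-0.01) and Psme1 at week 10 (-0.04), with Psme1 at -0.002 at week 8. With equal medians the week 10 calls were 5 higher and 0 lower in place of 2 and 2 (all genes 9.05% higher and 3.21% lower). Psmg2, which then passed the filter, was among the 5, and Psmb9 was among the calls at weeks 8 and 10.

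All 4 TNBS pools lay above both saline pools for 5 of the 41 genes: Psma2, Psma3, Psma4, Psmb7 and Psme4 (12.2%, against 6.37% of all genes). The lowest TNBS pool stood above the higher saline pool by a log2 margin of 0.02 for Psma2, 0.07 for Psma4 and 0.09 for Psmb7. For Psme4 it was 0.24 and for Psma3 0.30. Only the margin of Psma3 exceeded the SD of 0.27 between repeat arrays, and Psma3 and Psmb7 were read by probe sets with the suffix f. They lay below both for 2, Psmc5 and Psmd8 (4.88%, against 9.04%), though with equal array medians both were above their control at week 8 (0.04 and 0.06). A model that set the 4 TNBS against the 2 saline pools and adjusted for the control set (limma, two-sided, Benjamini-Hochberg over all 4316 genes) called 0 of 41 proteasome genes and 0 genes in all. At an unadjusted p under 0.05 there were 3 of 41 (7.32%), against 221 of 4316 (5.12%). In limma these were Psme4 at 0.50 (SE 0.17), Psmb9 at 0.74 (SE 0.26) and Psma3 at 0.48 (SE 0.19), each with an adjusted p of 0.886. Psme4 and Psma3 were higher in 4 of 4 TNBS pools than in their control, Psmb9 in 3 of 4. Without the week 6 TNBS pool the estimate for Psmb9 was 0.37, no longer under the unadjusted threshold. Pools of different times stand in as replicates here, so the spread among mice does not enter the model.

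Genes of the same pathway outside the proteasome gave a wider picture. Of 11 antigen processing genes on the array, 9 passed the filter. Of these, 2 were at least 1.5-fold higher at week 6, 4 at week 8 and 0 at weeks 10 and 12. Of all genes, 7.55%, 6.56%, 4.89% and 4.84% were higher at weeks 6, 8, 10 and 12. None of the 9 was 1.5-fold lower, and Tap1 (-0.57) and Pdia3 (-0.56) were the lowest at week 12. Tap1 had a signal of 147.5 and 147.7 on the early saline arrays and 309.9 in the week 6 TNBS pool. It was 219.2 in the later saline pool and 218.5, 196.3 and 148.1 in the later TNBS pools, so that, as for Psmb8, the later saline pool lay above the earlier one. Pomp, the chaperone that completes proteasome assembly, was at 0.59 at week 6 and 0.62 at week 8. Against the later saline pool, 0 of the 9 reached 1.5-fold in the week 6 TNBS pool, with Tap1 at 0.50 and Pomp at 0.32. Of all genes, 8.46% were higher and 8.39% lower there. H2-D1, a class I heavy chain, was at 0.44 and Pdia3, a chaperone of class I loading, at 0.45 at week 6.

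Genes of the interferon gamma response, from its receptor to the genes it induces, had their highest median at week 6. Of 15 past the filter, of 18 on the array, 9 were at least 1.5-fold higher and 0 lower, with a median of 1.30. Ifng, the gene of interferon gamma itself, and Cxcl10 were under the floor on every array. Cxcl9, Socs1 and Ubd, all 3 among the 9, passed the filter only through TNBS pools, so the count and the median carry no support of their own. The median is the value of Cxcl9, a chemokine whose saline arrays were all under the floor of 50, so its difference is a lower bound. Of the other 12 genes, 6 were higher, with a median of 1.01. At weeks 8, 10 and 12 there were 4, 5 and 0 higher, and 0, 0 and 2 lower, with medians of 0.18, 0.34 and -0.14. Of all genes, 7.55%, 6.56%, 4.89% and 4.84% were higher at weeks 6, 8, 10 and 12. The shares lower were 5.93%, 9.75%, 6.28% and 5.38%. Between both saline pools, 5 of the 15 were higher in the later pool (5.07% of all genes), with a median of 0.22. Ubd, a ubiquitin-like modifier that targets proteins to the proteasome, was at 59.3 and 52.9 on the early saline arrays, 308.3 in the week 6 TNBS pool, 59.2 in the later saline pool, and 54.0, 260.1 and 54.9 in the later TNBS pools. It was high in the week 6 and week 10 TNBS pools and near the floor in all others. The GTPases Iigp1, Igtp and Ifi47 had week 6 differences of 2.18, 1.97 and 1.66. Between both saline pools, without TNBS, these GTPases differed by 0.77, 0.67 and 0.98. Against the later saline pool their week 6 differences were 1.41, 1.30 and 0.68. Of the 15 genes, 7 were then at least 1.5-fold higher, with a median of 0.53 over the 15, against 8.46% of all genes higher in that comparison. By contrast, ubiquitin and shuttle factors, which deliver substrates or regulate proteasome genes, had a median of 0.05 at week 6, and 0 of 11 past the filter (Ubqln2 and Txnl1 only through TNBS pools) reached 1.5-fold there. Ecpas, Ubqln2 and Akirin2 were at 0.26, 0.23 and 0.22, and Nfe2l1, the factor that raises proteasome genes when activity falls short, at -0.24.

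Leukocyte transcripts moved with the same pool. Of 11 leukocyte markers past the filter, of 19 on the array, 9 were at least 1.5-fold higher in the week 6 TNBS pool and 0 lower, with a median of 0.93. Ptprc and Cd4 passed the filter only through that pool, and of the other 9 markers 8 were higher, with a median of 1.07. Tyrobp, an adaptor of myeloid and NK cell receptors, was at 2.08 and Cd53, a tetraspanin of leukocytes, at 1.80. Lyz2, the lysozyme of macrophages, was at 1.11 and Cd52, a surface glycoprotein of lymphocytes, at 1.09. Cd53 itself differed by -0.96 between both early saline arrays (153.2 and 78.5). It also stayed at 1.39, 1.15 and 1.38 at weeks 8, 10 and 12. The summed signal of the 19 markers was 2494.0 and 2502.8 on the early saline arrays, 4892.8 in the week 6 TNBS pool, 2467.7 in the later saline pool, and 2981.8, 2599.1 and 3001.0 in the later TNBS pools. None of the 19 was listed at 0, and Cd3d, Cd3g, Cd8a, Itgb2 and Fcer1g were under the floor on every array. At weeks 8, 10 and 12, 1, 2 and 2 markers were higher and 1, 2 and 0 lower. Of all genes, 7.55%, 6.56%, 4.89% and 4.84% were higher at weeks 6, 8, 10 and 12. The shares lower were 5.93%, 9.75%, 6.28% and 5.38%. Of 11 epithelial markers, 2 were at least 1.5-fold lower at week 6: Car4 (-1.01) and Aqp8 (-0.64), both of surface colonocytes, with Car1 at -0.52 and Krt18 at -0.32. The median of the 11 was -0.05, and 0 were 1.5-fold higher. The others of the 11 ran only from -0.09 to 0.06. The part of leukocyte content in the week 6 differences of Psmb8, Psmb9 and Psme1 was not tested.

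**Figure D4:**
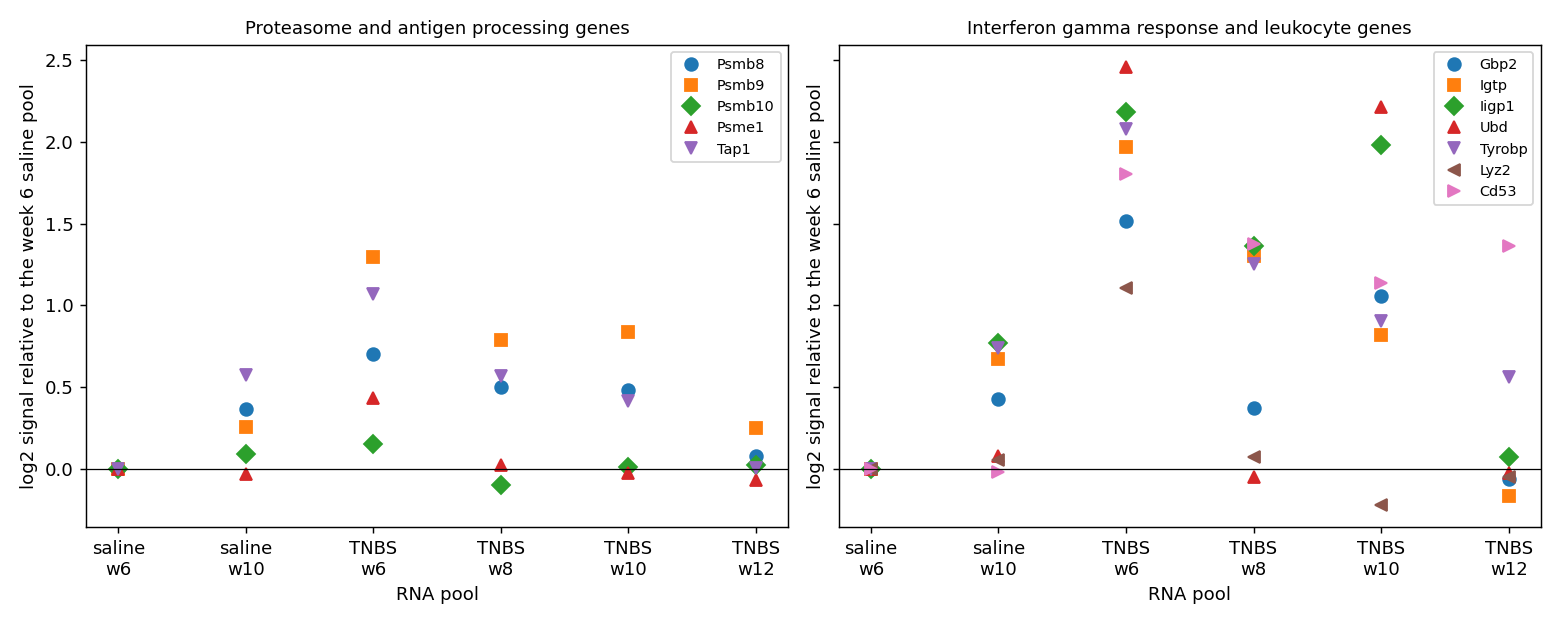
Log2 signal relative to the early saline pool (vertical axis) in each of the other pools, for Psmb8, Psmb9, Psmb10, Psme1 and Tap1 on the left and for interferon-induced genes and leukocyte markers on the right. Each point is 1 pool, without error bars, and Psmb9 (1.30), Tap1 (1.07), Igtp (1.97) and Tyrobp (2.08) are high in the week 6 TNBS pool, while Psmb10 lies at 0.15 there.

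Several genes were read by more than 1 probe set, and these did not always agree. Of 8 genes with further probe sets (12 in all), 5 of the further sets were under the floor on every array. The second set of Psmb5 was at 161.1 and 164.5 on the early saline arrays, 94.2 in the week 6 TNBS pool, 137.5 in the later saline pool, and 87.8, 65.1 and 91.2 in the later TNBS pools. This second set, which has no suffix, was lower in all TNBS pools, at -0.79, -0.65, -1.08 and -0.59. The brighter set, with the suffix s, gave 0.30, 0.01, -0.15 and -0.02, so no direction can be given for Psmb5. Psmb8, Psmb9, Psmb10, Psmb6 and Psmb7 were each read by 1 probe set.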

How the data were processed

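Colon RNA of 6 pools was measured on 7 one-colour Affymetrix arrays. The deposited values are linear signal intensities that, per the labels' protocols, the authors obtained from Affymetrix Microarray Suite 5.0 after scaling every array to a target of 150. The proteasome genes and the gene lists were chosen with earlier results of these data known. Of 12488 probe sets, 66 controls were left out, and 10833 had 1 symbol, 396 several and 1193 none in the platform annotation. Entrez identifiers of 10817 were found in RefSeq (GRCm38.p6). Each gene was read by its brightest probe set, values under 50 were set to 50 before log2, and both week 6 saline arrays were averaged on the log2 scale. Genes were kept when their highest pool reached 100. Fold changes were counted at 1.5-fold, with 2-fold as an alternative. The pooled model used limma 3.58.1 in R 4.3.3 (empirical Bayes with an intensity trend, 3 residual degrees of freedom, threshold 0.05), tested on simulated data. The number of pools limits the precision, and the p-values of limma measure the spread between these pools. The PA28 contrast was planned for Psme1 and Psme2 and was made with Psme1 alone, since Psme2 had no probe set with 1 symbol. Named are the contrasted genes, every other gene past 1.5-fold, up to 4 genes of each list by their week 6 difference, and the 2 highest and 2 lowest of each role. Krt8, Lgals4, Ifng, Cxcl10 and the markers under the floor were named after their values were seen. Alternatives covered the floor, the filter, the log scale, the choice of probe set, scaling, the control pool and left-out arrays or pools. Promoters were taken from RefSeq. A further planned promoter motif is not reported here.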

Additional observations from a re-analysis of the deposited data

Results flagged for a closer look

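For 3 genes the week 6 difference ran opposite to all 3 later ones, which share 1 saline pool, and the difference between times was not tested. Psmb10 was at 0.15 at week 6 and at -0.19, -0.08 and -0.07 at weeks 8, 10 and 12 (log2). All 4 values of Psmb10 were smaller than the SD of 0.27 between repeat arrays. Psmb6 was at 0.28 at week 6 and at -0.41, -0.68 and -0.40 later, beside a difference of 0.39 between both saline pools. Psmd12 was at -0.26 at week 6 and at 0.94, 0.75 and 0.86 later, on a dim probe set with the suffix f.

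The probe set shared by Psme2 and Psme2b, which the comparisons leave out, had a signal of 622.4 in the week 6 TNBS pool, above both week 6 saline arrays at 356.3 and 429.2. The later saline pool, at 581.9, came close to it.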

How the results depend on the processing

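Under the alternatives, 169 values moved by no more than the SD between repeat arrays or, for counts, stayed within 1.5 times, and 21 moved by more. Part of this tally was fixed by the settings, so it does not measure robustness. The filters do not touch the catalytic genes of the gap, and equal array medians cancel in it. Floors of 25 and 100 left every tallied value unchanged, and the count of the pooled model stayed at 0 throughout. The share of all genes called was not tallied, and with a floor of 100 it was lower at every time. Of 126 differences recomputed, 9 took the opposite sign, none of them past 1.5-fold before: the gap of -0.04 at week 12 became 0.24 and 0.02, the proteasome medians of weeks 10 and 12 rose to at most 0.14 and 0.19, and Psme1 against the others turned to -0.17 at week 10 and 0.01 at week 8. Counts of genes past the fold were 4, 3, 4 and 2 at weeks 6, 8, 10 and 12. At 2-fold they were 1, 0, 0 and 0. With equal array medians the week 8 count was 8 of 42 (all genes 17.6%), and with the other saline pool as control it was 13 at week 8 (31.7%, all genes 28.3%) and 6 at week 12 (14.6%, all genes 16.6%). Without suffixed probe sets, an alternative chosen after seeing the data, the counts were 0 at week 8 and 1 at week 12, of 33 genes. No such share was taken over all genes. With log2(value + 50) the week 10 count was 0 (all genes 4.82%), and with a filter of 200 the week 12 count was 1 (2.63%, all genes 8.18%). The gap between inducible and constitutive genes was 0.45, 0.73 and 0.24 at weeks 8, 10 and 12 with the mean of probe sets, in which the second Psmb5 set enters. It was 0.41 and 0.56 at weeks 8 and 10 with the other saline pool. The Psmb8 to Psmb5 shift was 1.49, 0.78, 1.19 and 0.30 with the second Psmb5 set, the last in place of -0.27. Psme1 against the other genes was at -0.28 at week 8 with the other saline pool. The cause of the other moves was not tested. At week 6 the gap stayed between 0.25 and 0.44, and Psme1 against the others between 0.059 and 0.41.

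Without the first week 6 saline array 6 genes passed at week 6 (14.6%, all genes 17.2%), with Psmd14 and Psmg4 added. Without the second array 4 passed (9.76%, all genes 14.6%), with Psmd5 in place of Psme4. The pooled limma model called 0 proteasome genes under every alternative run, also without each TNBS pool, either early saline array or, added after seeing the data, either saline pool (0 to 0), while with no filter it called 17 other genes and without the week 12 pool 2. No paired analysis was possible because each group is 1 pool and the number 2 occurs only for the repeat array of the week 6 saline pool. The number of pools, and signals near the floor for genes such as Psmd12, limit what can be read.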
